A study of Mus musculus with 12 samples.

Results

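Mouse embryonic stem cells taken to be those without Ago proteins in the series' design text were compared with wildtype mouse embryonic stem cells, using 2 of the 12 small-RNA libraries of the series. The library called NoDox here came from the TT-FHAgo2 line grown without doxycycline, and the wildtype library came from cells given only that line name and no doxycycline. TT-FHAgo2 is a clonal line kept in doxycycline at 0.1 µg/mL, and at 2.5 µg/mL it is induced to make Ago2 at about the wildtype level, per the labels' protocols. The design text speaks of cells without Ago proteins and names no sample, and the NoDox labels give the line and treatment alone. Which Ago alleles are deleted, how long the NoDox cells were without the drug and how TT-FHAgo2 is related to the wildtype cells are not given in the labels. The cells were grown on gelatin with serum and leukemia inhibitory factor, total RNA between 18 and 75 nt was size-selected by gel, and both libraries were ligated with a kit that needs a 5' phosphate. Each group had 1 library, so no difference below has a replicate check and no test was made. Ratios are of CPM, a read's count scaled to 1000000 reads of its file, NoDox over wildtype, with an exact 95% binomial interval that covers counting error only.

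The library of TT-FHAgo2 with 2.5 µg/mL doxycycline (Dox), made the same way, is given beside many values because NoDox and Dox share the line, and Dicer-null cells are given where they bear on a value. The comparison of NoDox with wildtype and that of Dox with wildtype share the wildtype library. NoDox differs from wildtype in line as well as in the Ago state the design text gives, and these cannot be told apart from the pair alone. The FLAG immunoprecipitations (IPs) of tagged Ago2 from the same induced line were 2 libraries cloned by another protocol. They were used only to name the guide arm of each hairpin and to say which RNAs the IPs held.

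Argonaute proteins bind small RNAs and, through base pairing of the small RNA with a messenger RNA, repress the messenger. A miRNA begins as a hairpin that Drosha trims in the nucleus and Dicer cuts in the cytoplasm to a short duplex. An Argonaute takes 1 strand of that duplex, the guide, and discards the other, the passenger, and bound guides are in general long-lived. In embryonic stem cells the miR-290-295 and Mir302/Mir367 clusters are the best known miRNA groups, and Ago2 is the only mouse Argonaute that slices well-paired targets.

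The mature sequences on which the results turn are printed 5' to 3' with the seed, bases 2 to 8, in capitals. They come from RefSeq (GRCm38.p6). The first 4 share a seed across the stem cell clusters, miR-20a has it moved by 1 base, and the others are guide and passenger pairs or arms whose 3' tails are described.
miR-294-3p: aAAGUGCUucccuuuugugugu
miR-295-3p: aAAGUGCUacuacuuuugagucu
miR-291a-3p: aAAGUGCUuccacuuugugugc
miR-302b-3p: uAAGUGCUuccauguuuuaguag
miR-20a-5p: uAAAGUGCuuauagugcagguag
miR-92a-3p, guide: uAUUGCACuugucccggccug
miR-92a-1-5p, passenger: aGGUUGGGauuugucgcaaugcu
miR-27a-3p, guide: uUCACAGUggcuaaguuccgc
miR-27a-5p, passenger: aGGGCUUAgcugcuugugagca
miR-195a-5p, guide: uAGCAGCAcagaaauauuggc
miR-195a-3p, passenger: cCAAUAUUggcugugcugcucc
miR-292a-5p: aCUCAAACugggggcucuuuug
miR-293-5p: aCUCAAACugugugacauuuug
miR-30e-5p: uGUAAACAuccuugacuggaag

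On GRCm38 the miR-290-295 hairpins lie close together on the plus strand of chromosome 7, where GENCODE has no other gene on that strand. They include Mir291a at chr7:3218919-3219000, Mir292 at chr7:3219189-3219270, Mir293 at chr7:3220343-3220422, Mir294 at chr7:3220641-3220724 and Mir295 at chr7:3220773-3220841. Mir302b is at chr3:127545228-127545301 on the plus strand, also outside any other annotated gene. Mir20a at chr14:115044157-115044263 and Mir92-1 at chr14:115044427-115044506 are exonic in the lincRNA Mir17hg, on the plus strand. A second copy of miR-92a-3p comes from Mir92-2 at chrX:52741838-52741928 on the minus strand. Mir27a is at chr8:84208672-84208758 and Mir195a at chr11:70235042-70235135, both on the plus strand with no other gene annotated over them. Mir30e is intronic in Nfyc at chr4:120772606-120772697, minus strand.

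The NoDox file held 26542602 reads and the wildtype file 32255916, so 3 counts, the limit that a count of 0 allows, are 0.113 and 0.0930 CPM. Reads under 18 nt made 12.3% of the NoDox file and 6.78% of the wildtype file, and exact matches to GENCODE transcripts 34.2% and 47.0%. Reads of 40 nt, the longest the run gives, made 20.7% and 18.5%. The part of these differences in the values below was not tested.

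Fragments of Argonaute mRNA served as the only check of the labels in these files. Ago1 gave 0 reads in NoDox, 34 in wildtype, 0 in Dox and 407 in Dicer-null cells. Ago2, which is also the induced gene, gave 83 reads in NoDox, 142 in wildtype, 96 in Dox and 601 in Dicer-null cells, or 0.710 times the wildtype CPM in NoDox (interval 0.535 to 0.938). The FLAG IPs held 24 and 37 Ago2 reads and no Ago1 read. Ago3 gave 43 reads in NoDox and 28 in wildtype, and Ago4 0 and 1. Apart from Ago4 with its 1 read, Ago1 was thus the Argonaute with reads in wildtype and none in NoDox, and it had none in Dox as well. Such fragments do not measure protein, and fragments outside a deleted part check nothing, so the Ago2 level of the NoDox cells cannot be read from them. Of the enzymes that make miRNAs, Dicer1 gave 93 and 54 reads in NoDox and wildtype (ratio 2.09, interval 1.48 to 2.98), Drosha 74 and 63, and its partner Dgcr8 59 and 48.

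Most miRNA reads were missing from the NoDox library. Reads inside annotated miRNA hairpins made 1.30% of the NoDox reads and 21.1% of the wildtype reads, a ratio of 0.0616 (interval 0.0614 to 0.0618). In the same line with doxycycline the share was 10.3%, and in Dicer-null cells 1.42%. The difference was larger for reads that begin within 1 nt of the 5' end of an annotated mature miRNA, with or without added 3' bases. There were 75757 of them in NoDox, 7269412 in wildtype, 2916068 in Dox and 129931 in Dicer-null cells, or 0.285%, 22.5%, 10.5% and 0.165% of reads. The NoDox share was thus 79.0-fold lower than the wildtype share (ratio 0.0127, interval 0.0126 to 0.0128), and the Dox share was 36.7 times the NoDox share. Some of these reads are from arms not lower by 2-fold, such as miR-677-5p with 4643 NoDox and 5138 wildtype reads. In bulk RNA, fewer cells holding miRNAs and less miRNA in each cell cannot be told apart.

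Single hairpins were compared where NoDox and wildtype together gave 100 or more reads, which 386 hairpin features of 1529 with any read passed. A sequence found in several hairpins counted for a merged feature, named with slashes. Of the 386, 328 (85%) were lower in NoDox by 2-fold or more, 9 (2.33%) were higher by 2-fold or more and 49 lay between. The median log2 ratio was -6.28, and -6.01 with the 33 features at 0 reads in NoDox set to 3 counts. With each distinct sequence counted once, in place of reads, 131 of 277 features were lower and the median was -0.91. Among the 282 features with a RefSeq mature arm, 264 were lower, 2 were higher and the median was -6.34. Among the other features, those whose genes all bear a Mir symbol behaved alike, with 43 of 46 lower, while those with any other gene name were mostly not lower, with 21 of 58 lower and a median of -0.09.

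**Figure D1:**
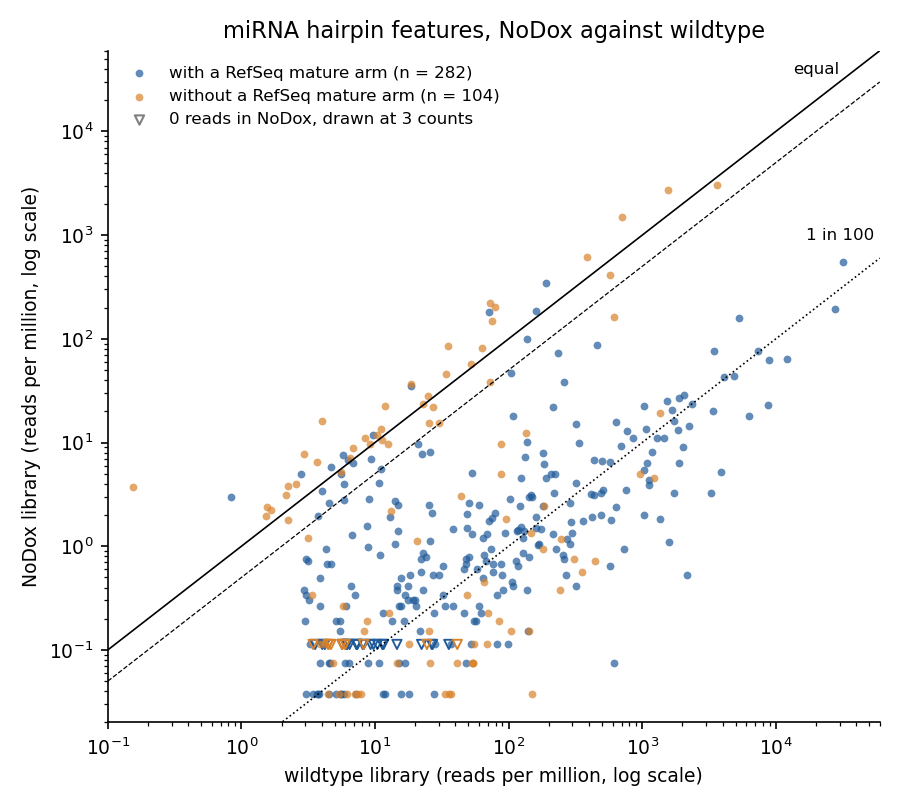
Each of the 386 hairpin features is 1 point, with wildtype CPM on the horizontal and NoDox CPM on the vertical axis, both log scales; blue points have a RefSeq mature arm (282) and orange points do not (104), and triangles are the 33 features with 0 NoDox reads, drawn at 3 counts, so that points with 1 or 2 reads lie below them. The solid line is equality, the dashed line a 2-fold lower level and the dotted line 1 in 100. Most blue points lie along the dotted line, and a group of mainly orange points lies along equality.

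The 10 most abundant hairpin features in wildtype were all lower, by 33.9-fold to 374-fold. Mir292, of the miR-290-295 cluster, gave 31732 CPM in wildtype, 546 in NoDox and 27760 in Dox, and was 58.1-fold lower in NoDox than in wildtype. Its neighbour Mir293 gave 27630, 193 and 14648 CPM, which is 143-fold lower. Mir182, of the miR-183/96/182 cluster of sensory and epithelial cells, gave 12171, 64.4 and 2385 CPM, and Mir183 6344, 17.9 and 1710 CPM. These 2 kept more reads in Dicer-null cells, at 278 and 352 CPM, than in NoDox. Mir7-1/Mir7-2, known from neurons and endocrine cells, gave 8859, 63.0 and 3669 CPM. Mir21a, a widely expressed miRNA of growing cells, gave 4899 CPM in wildtype, 43.5 in NoDox and 4701 in Dox, so that Dox and wildtype were close for it. Of the 10, Mir20a was the lowest in NoDox relative to wildtype at 374-fold, and Mir92-1 of the same transcript the least reduced at 33.9-fold. The remaining reads of Mir92-1 came in large part from its passenger arm, as described with the arms.

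Families differed in how far they were lower. The counts of lower members here and in the lists below stand beside 328 of all 386 hairpin features (85%). With a RefSeq mature arm it was 264 of 282, so such counts set few lists apart. All 7 features of miR-290-295 were lower, with a median log2 ratio of -6.57, and together they gave 74911 CPM in wildtype, 889 in NoDox and 47712 in Dox. All 17 features of miR-17-92 and its paralogs, which promote proliferation, were lower with a median of -8.34, from 31825 CPM in wildtype to 249 in NoDox and 7345 in Dox. Mir20b of that list gave 3876 CPM in wildtype, 5.24 in NoDox and 457 in Dox, a 740-fold lower level. All 47 features of the cluster in an intron of Sfmbt2, expressed in stem cells and placenta, were lower, 10 of them at 0 reads, and summed to 4384, 14.4 and 699 CPM. Their median was -9.08, or -7.62 with zeros at 3 counts. In the Dlk1-Dio3 imprinted region on chromosome 12, all 45 features were lower with a median of -6.33, at 15017, 246 and 8901 CPM. Its leading members Mir381, Mir127 and Mir541 were 71.6-, 139- and 108-fold lower. Of 40 features of broadly expressed miRNAs, 39 were lower, and the exception was Mir26a-2 (186 NoDox and 301 wildtype reads), whose reads are those of its passenger arm because the guide is shared with Mir26a-1. These 5 lists had medians below the -6.28 of all hairpin features.

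**Figure D2:**
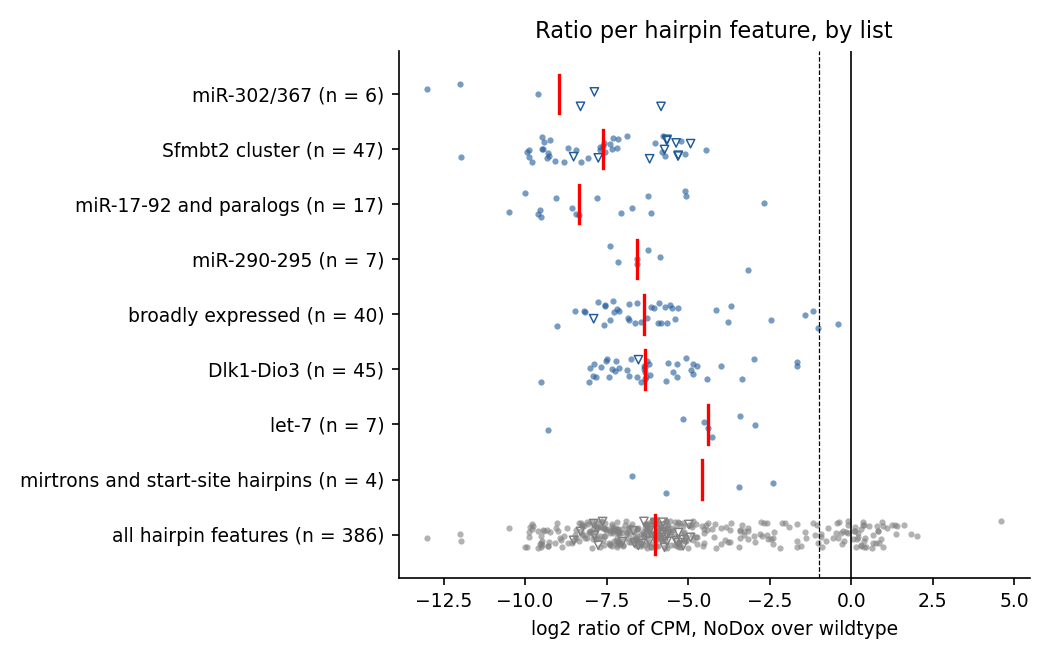
Each point is the log2 ratio of CPM, NoDox over wildtype, of 1 hairpin feature, by list, with red bars at the list's median and triangles at features with 0 NoDox reads set to 3 counts. The solid line marks an equal level and the dashed line a 2-fold lower level; all hairpin features are in grey at the bottom.

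The Mir302/Mir367 cluster was nearly absent from NoDox, and it was also low in the induced line. Its 6 features summed to 3574 CPM in wildtype, 1.54 in NoDox and 48.3 in Dox. Mir302b gave 69483 reads in wildtype, 14 in NoDox and 703 in Dox, or 2154, 0.527 and 25.3 CPM, a 4084-fold lower level in NoDox (ratio interval 0.000134 to 0.000411). Mir302d gave 19819, 2 and 227 reads. Mir302c and Mir367 gave 1151 and 857 reads in wildtype and 0 in NoDox, at least 316-fold and at least 235-fold lower. Induced cells thus held far less of this cluster than wildtype, unlike Mir21a or Mir292, and the parts of line and Ago in the NoDox difference cannot be told apart here.

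The other features of lowest ratio also had 0 reads in NoDox. Mir466f-3 and Mir669l of the Sfmbt2 cluster had 1332 and 789 wildtype reads, at least 365-fold and at least 216-fold lower. Mir107, which lies in an intron of Pank1 and belongs to the miR-103/107 family, had 870 reads in wildtype and 250 in Dox, at least 239-fold lower in NoDox. Mir653 in Calcr had 720 wildtype and 28 Dox reads, and Mir452 in Gabre 374 and 56. Mir466f-2/Mir466i had 471 and 73. All were counted in Dox, at a lower CPM than in wildtype.

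The let-7 and mirtron lists had medians above that of all hairpin features. The 7 let-7 features, known from differentiated cells, were all lower with a median of -4.38, and summed to 154 CPM in wildtype, 6.10 in NoDox and 179 in Dox. Mirlet7g gave 1626 reads in wildtype, 70 in NoDox and 1845 in Dox, and Mirlet7c-1/Mirlet7c-2 gave 1539, 2 and 359. The 4 features of mirtrons and start-site hairpins, which are made without Drosha, were lower with a median of -4.56. Mir484 was 106-fold lower (5157 to 40 reads), Mir1981 50.9-fold (371 to 6 reads) and Mir320 11.0-fold (4379 to 328 reads). Mir451a, the miRNA that Ago2 itself cuts without Dicer, had no feature with 100 reads.

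Markers of other cell types were present in wildtype at low levels and were lower in NoDox too. The 5 fibroblast features summed to 267 CPM in wildtype, 4.18 in NoDox and 169 in Dox, led by Mir143 with 5895, 65 and 4230 reads. The 2 neural features summed to 302, 10.9 and 82.6 CPM. The muscle feature Mir1a-1/Mir1a-2 had 366 reads in wildtype, 0 in NoDox and 61 in Dox, and the liver list had no feature with 100 reads. The 2 blood features summed to 102, 9.80 and 87.5 CPM. One of them, Mir142, had 720 reads in wildtype, 205 in NoDox and 1904 in Dox, and at 2.89-fold lower it was among the least reduced of the listed miRNAs. Its guide arm was 12.9-fold lower, with 26 reads in NoDox and 408 in wildtype. The passenger arm gave 131 and 310 reads. By distinct sequences the sign of Mir142 turned, with a log2 ratio of 0.46. The part of cells other than stem cells in the results was not tested. The stem cell lists stood far above these in wildtype, as the label has it.

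The 58 features that were not lower by 2-fold were mostly at low levels in the FLAG IPs, feature by feature. Their median level in the FLAG IPs was 0.595 CPM, against 142 CPM for the 328 features that were lower. They nevertheless made 79.8% of the hairpin reads of NoDox, with 275289 reads, and 3.93% of those of wildtype, with 267078. The largest was Snord43, a snoRNA annotated as a miRNA gene, with 80722 NoDox and 117823 wildtype reads. Of features higher by 2-fold or more, Mir6539 in an intron of Dock5 gave 223 CPM in NoDox and 72.3 in wildtype (ratio 3.08), and Mir6236 gave 183 and 71.9 (ratio 2.55). Both had more reads in Dox than in wildtype as well, at 109 and 129 CPM. The others of highest ratio were mostly models without a Mir symbol, such as Gm47287/Gm47304/Gm47305 (431 NoDox and 130 wildtype reads), which lies in the exons of 7SL genes, and Gm47276/Gm47281/Gm47301 (2243 and 1144 reads), which lies in the exons of 5S rRNA-like genes and turned sign with reads of 20 to 24 nt alone (log2 ratio -0.0074). The n-TSaga9 model gave 205 and 95 reads and Gm24105/Gm47295/Gm47299 5373 and 2551. A feature shared by 47 gene models (Gm22029 and others) had the highest ratio from few reads, 99 and 5, and another shared by 36 (Gm22174 and others) had 79 and 27. Beside these, Mir677 (4919 and 5212 reads) and Mir1291 (2661 and 4406 reads) have RefSeq mature arms and were near equal, with 3.02 and 0.161 CPM in the IPs.

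Just above the limit of 100 reads, Mir3072 had 1 read in NoDox and 99 in wildtype, and Mirlet7d 10 and 95. Just below it, Mir466 had 0 and 99 and Mir770 2 and 93.

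The arms of a hairpin did not share 1 ratio. In 119 hairpin groups both arms had 100 or more reads over the 2 libraries, and the guide was named as the arm with more reads in the FLAG IPs, which are not among the libraries compared. The median guide arm was 143-fold lower in NoDox than in wildtype and the median passenger arm 22.6-fold lower. Guides were lower by 2-fold or more in 115 groups (96.6%) and passengers in 105 (88.2%). Within a group the passenger's log2 ratio exceeded the guide's in 98 of 119, by 1 or more in 84, and it was below the guide's by 1 or more in 10. The median difference was 3.02, with quartiles of 0.54 and 5.18 and a range of -4.91 to 8.23. Of the pairs, 106 had a RefSeq mature arm and gave a median of 2.99. The median passenger share of a hairpin's reads was 50.0% in NoDox, 12.7% in wildtype and 13.8% in Dox. The passenger had more reads than the guide in 57 groups in NoDox, 26 in wildtype and 31 in Dox. Pooled over all groups, where a few abundant hairpins dominate, the passenger share was 28.7% in NoDox and 29.4% in wildtype. The snoRNA Snord43 gave 77125 of the pooled NoDox guide reads. Pooled over the 106 groups with a RefSeq mature arm alone, the passenger share was 59.0% in NoDox, 30.2% in wildtype and 47.0% in Dox. A low arm could reach 100 reads through either library, and with 100 reads asked of both arms in wildtype alone the median difference was 2.96.

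**Figure D3:**
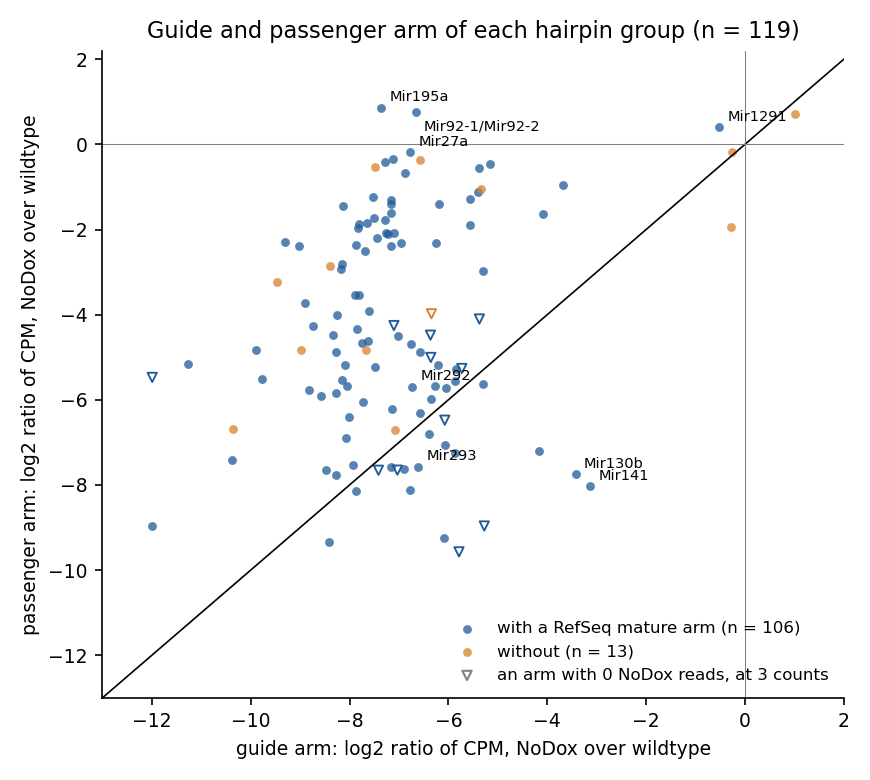
Each of the 119 points is a hairpin group, with the log2 ratio of CPM, NoDox over wildtype, of its guide arm on the horizontal and of its passenger arm on the vertical axis; triangles have an arm with 0 NoDox reads, set to 3 counts. On the diagonal both arms change alike, and 98 groups have a passenger ratio above the guide ratio. Mir195a and Mir92-1/Mir92-2 lie above 0 on the passenger axis, and Mir141 and Mir130b lie far below the diagonal.

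Among the 12 guide arms with the most NoDox reads in hairpins that have a RefSeq mature arm, the passenger ratio was above the guide ratio in all but Mir293. By reads alone 2 groups without one would also enter, Snord43 with near equal ratios (guide 0.830, passenger 0.882) and Gm47284, where the guide ratio (2.01) was above the passenger ratio (1.65). For Mir92-1/Mir92-2 the guide miR-92a-3p fell from 6855 to 67.6 CPM (2432 in Dox), and the passenger side held 101 CPM in NoDox, 59.4 in wildtype and 125 in Dox. The passenger share of this group was 59.98% in NoDox, 0.860% in wildtype and 4.87% in Dox. By the annotated miR-92a-1-5p start, the passenger of Mir92-1 had 2731 reads in NoDox and 1723 in wildtype, a ratio of 1.93. The passenger of Mir92-2, miR-92a-2-5p, went the other way, with 99 and 483 reads and a ratio of 0.249. For Mir30e the guide went from 3344 to 45.8 CPM and the passenger from 76.1 to 28.9 CPM, with 59.2 in Dox. For Mir182 the guide ratio was 0.00448 and the passenger ratio 0.273, for Mir295 0.00671 and 0.233, for Mir7-1/Mir7-2 0.00733 and 0.236, and for Mir148a 0.00807 and 0.2002. Mir30a (0.0131 and 0.202) and Mir20a (0.00210 and 0.0760) followed the same order. The passenger arm of Mir295 gave 703 reads in NoDox, 3664 in wildtype and 4040 in the Dicer-null file of 78762632 reads. The Mir295 guide gave 178 reads in that file. Reads at this passenger arm were thus also found in cells labelled Dicer-null. Mir379 of the Dlk1-Dio3 region had arms that were lower alike, with ratios of 0.0122 and 0.0159. Mir1291, one of the hairpins that was not lower, had 0.696 and 1.33.

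In Mir292 and Mir293 both arms are abundant in the IPs, where the lesser arm holds 46.2% and 44.8% of reads, so guide and passenger are nearly arbitrary there. The 5' arm of Mir292 went from 24726 to 480 CPM, with 24932 in Dox, and the 3' arm from 7006 to 66.1 CPM, with 2826 in Dox. The 5' arm of Mir293 went from 9272 to 94.5 CPM and the 3' arm from 18353 to 96.8 CPM. The abundant miR-292a-5p alone gave 16579 of the 75757 miRNA reads left in NoDox.

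The widest gaps between arms, chosen after their values were seen, were in Mir195a, Mir92-1/Mir92-2, Mir96 and Mir30b, and Mir27a and Mir16 are given beside them. In Mir195a, of the miR-15/16 seed family, the guide gave 16 NoDox and 3196 wildtype reads and the passenger 463 and 309. Its passenger share was 96.7% in NoDox, 8.82% in wildtype and 45.9% in Dox. In Mir27a the guide gave 53 and 7068 reads and the passenger 962 and 1328, and the passenger CPM was 36.2 in NoDox, 41.2 in wildtype and 36.9 in Dox. For Mir195a and Mir27a the passenger level in NoDox was thus above or near the wildtype level, while the guides were more than 100-fold lower. In Mir30b the guide gave 12 and 2609 reads and the passenger 119 and 210, and in Mir96 the arms gave 78 and 59920, and 78 and 465. The passenger side of Mir16-1/Mir16-2 gave 1096 and 3310 reads where the guide gave 95 and 16419, so that it was lower too, by less. The widest gaps the other way were in Mir141 and Mir130b. In Mir130b the arm named guide by the IPs gave 261 and 3408 reads and the other arm 4 and 1041, and in Mir141 the arms gave 10 and 106, and 2 and 636. In Mir141 the arm named passenger was the more abundant in wildtype, at 85.7% of reads.

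Summed by seed over guide and passenger arms, the groups kept different fractions. The AAGUGCU group, with 5 matures counted, gave 2192 reads in NoDox and 608913 in wildtype (ratio 0.00437). The AAAGUGC group of miR-17, miR-20 and relatives gave 917 and 722775 (ratio 0.00154), and the AUUGCAC group of miR-92a and miR-25 2794 and 402116 (ratio 0.00844). The CUCAAAC group, which is the 5' arms of miR-290a, miR-292a and miR-293, kept the most of these, with 19654 and 1301991 reads (ratio 0.0183). The CUCAAAC group gave 36185 CPM in Dox and 40364 in wildtype, and the AAAGUGC group 4167 and 22407.5. Relative to wildtype, the order of these 2 was thus the same in the induced line.

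Pooled reads at mature miRNA 5' ends in NoDox carried fewer added A and more added U, which is read as T, at the 3' end. Of the 75757 NoDox reads 2.80% (interval 2.68 to 2.92) ended in 1 to 4 extra A alone, against 5.78% in wildtype and 5.36% in Dox. Extra T alone ended 7.25% (interval 7.07 to 7.44) in NoDox, 4.15% in wildtype and 4.11% in Dox. In Dicer-null cells the shares were 2.60% for A and 4.79% for T. The 75757 reads include arms not lower by 2-fold, such as miR-677-5p (4643 NoDox and 5138 wildtype reads) and miR-1291 (2424 and 4203). The part of such arms in the pooled shares was not tested. Without miR-292a-5p the share of T tails was 5.02% in NoDox, 3.85% in wildtype and 3.20% in Dox, so 1 arm gave a large part of the pooled difference. Over the 80 arms with 100 or more reads in each library, the median share of A tails was 2.37% in NoDox and 4.14% in wildtype. It was lower in NoDox in 69 of the 80 arms, 27 of them with intervals apart, and 3 arms had intervals apart the other way. The median share of T tails was 4.81% in NoDox, 2.997% in wildtype and 3.21% in Dox. It was higher in NoDox in 48 of 80 arms, with intervals apart in 23, and 8 had intervals apart the other way. Among the 36 guide arms the median share of T tails was 6.39% in NoDox, 3.14% in wildtype and 3.67% in Dox, and among the 29 passenger arms 4.82%, 2.93% and 4.54%. Among the 15 other arms the median was 2.94%, 2.59% and 2.18%, but the share was higher in NoDox than in wildtype in 5 and lower in 10. Added A was thus lower in most arms, and added T was mixed between arms.

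Single arms differed widely in T tails. In miR-292a-5p they made 15.2% of reads in NoDox, 6.18% in wildtype and 6.41% in Dox. In miR-293-5p, which has the same seed, they made 8.11%, 0.591% and 0.854%. In miR-30e-5p they made 18.8%, 3.22% and 7.12%, and in its relative miR-30a-5p 11.5%, 3.34% and 4.81%. The largest share, in miR-708-5p and chosen after its value was seen, was 39.6% of 338 reads in NoDox (interval 34.4 to 45.1), 9.18% in wildtype and 11.8% in Dox. The guides miR-92a-3p, miR-7a-5p, miR-295-3p and miR-20a-5p had T tails in under 1 in 100 reads in both libraries, at 0.684%, 0.352%, 0.534% and 0.183% in NoDox. For miR-30e-3p the order was reversed, with 12.2% in NoDox and 23.2% in wildtype. Tails of C alone made 3.60% in NoDox and 4.48% in wildtype but 0.362% ± 0.0103 (SD, n = 2) in the IPs, which were cloned by another protocol. The part of cloning and of sequencing errors in the tails was not tested.

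**Figure D4:**
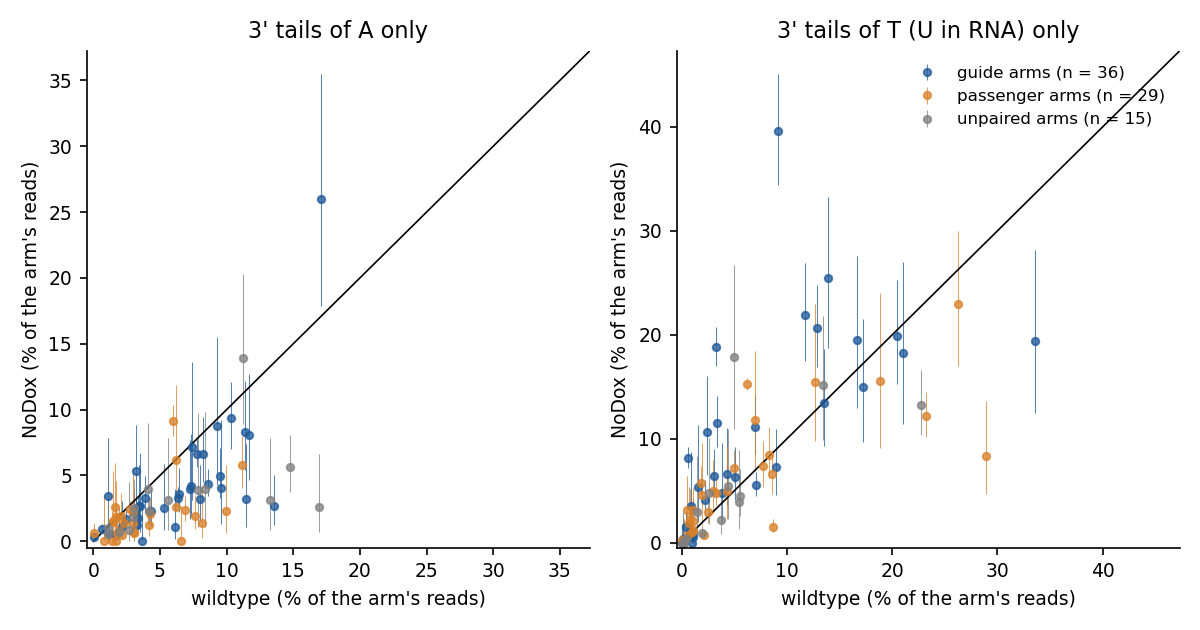
Each point is 1 of 80 mature arms with 100 or more reads in each library; the axes give the share of the arm's reads with a 3' tail of A alone (left) or T alone (right), wildtype on the horizontal and NoDox on the vertical axis, with 95% Clopper-Pearson intervals for NoDox. In the left panel 69 of 80 arms lie below the diagonal, and in the right panel 48 of 80 lie above it.

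The templated 3' ends of the same reads also differed when pooled. The annotated 3' end was reached exactly by 33.7% of NoDox reads, 53.1% of wildtype and 48.7% of Dox reads. Reads past that end made 28.9% in NoDox, 18.3% in wildtype and 18.3% in Dox. Reads short of it made 37.4%, 28.6% and 33.0%, and 12.2%, 5.06% and 4.95% were short by 2 nt or more. In Dicer-null cells 8.80% of such reads ended at the annotated end, 81.7% past it and 9.50% short of it. The part of reads like those of Dicer-null cells in the pooled NoDox shares was not tested. Arm by arm the difference in reads short of the end was small. The median share of reads short of the annotated end was 19.5% in NoDox and 18.2% in wildtype, higher in NoDox in 45 of 80 arms and lower in 35. The 36 guide arms had a median of 21.9% in NoDox and 17.8% in wildtype. The medians went the other way in the 29 passenger arms, at 16.8% and 17.8%, and in the 15 other arms, at 19.6% and 21.1%. In miR-21a-5p 18.3% of NoDox reads were short and 3.51% of wildtype reads, while in miR-92a-1-5p the shares were 92.3%, 49.2% and, in Dox, 85.6%.

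Most hairpin reads in NoDox were not of miRNA length. The 58 features not lower by 2-fold, Snord43 the largest, made 79.8% of the hairpin reads in NoDox and 3.93% in wildtype. Reads of 20 to 24 nt made 25.9% of the hairpin reads in NoDox, 91.8% in wildtype and 89.2% in Dox. Reads of 40 nt made 43.0%, 2.30% and 4.48%, and in Dicer-null cells 51.7%. The number of 40-nt hairpin reads was 148338 in NoDox and 156639 in wildtype, in files of unlike size. Hairpin reads of 20 to 24 nt numbered 89356 and 6248270, and those of 25 to 39 nt 83375 and 359093. Most of the missing reads were thus of miRNA length, and reads of 25 to 39 nt were fewer too. Of exact reads at an annotated mature arm, 82.1% were 20 to 24 nt in NoDox, 95.1% in wildtype and 37.4% in Dicer-null cells. The miRNA reads that remained in NoDox were thus still mostly of mature length, unlike those in Dicer-null cells.

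**Figure D5:**
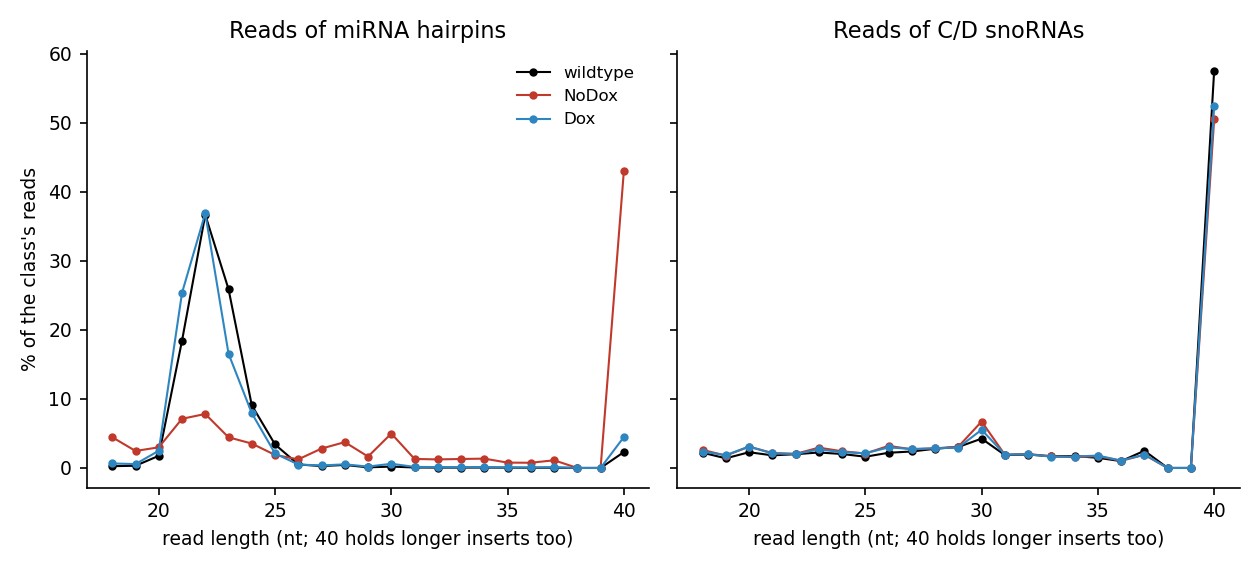
The percent of the reads of miRNA hairpins (left) and of C/D snoRNAs (right) at each read length from 18 to 40 nt is drawn for wildtype (black), NoDox (red) and Dox (blue). Reads of 40 nt also hold longer inserts. The 22-nt peak of wildtype (36.7%) and Dox (36.9%) is 7.82% in NoDox, where 43.0% of hairpin reads are 40 nt long; C/D snoRNA reads have nearly the same profile in the 3 libraries.

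Other RNA classes took a larger share of NoDox than of wildtype, with exceptions. Hairpins made 1.30% of NoDox reads and 21.1% of wildtype reads. With fewer hairpin reads in a file, the shares of other RNA rise even where their own levels are the same. This holds for the ratios and the counts of higher features below, and its part in them was not tested. C/D snoRNAs, which guide RNA methylation, made 5.93% of NoDox reads and 4.89% of wildtype reads (ratio 1.21), and H/ACA snoRNAs and scaRNAs 0.414% and 0.352% (ratio 1.17). The snRNAs had a ratio of 1.06, unnamed snoRNAs 0.923, mitochondrial RNA 1.30, protein-coding exons 1.72, annotated rRNA 1.84 and lncRNA 1.86. When reads are scaled to matched reads in place of the file total, the C/D ratio is 1.67 and the snRNA ratio 1.46. Matched reads include the hairpins and made 34.2% of NoDox and 47.0% of wildtype reads, so this scaling raises every ratio. By distinct sequences these ratios are below 1, at 0.970 and 0.829. Of 2552 features outside hairpins with 100 or more reads, 73 (2.86%) were lower by 2-fold or more and 423 (16.6%) were higher, with a median ratio of 1.34. Of 88 C/D features 3 (3.41%) were lower and 5 (5.68%) higher, and of 227 snRNA features 10 (4.41%) and 15 (6.61%). Of 57 H/ACA snoRNA and scaRNA features 1 (1.75%) was lower and 6 (10.5%) were higher, and of 165 unnamed snoRNAs 9 (5.45%) and 12 (7.27%). Annotated rRNA had 3 of 112 lower (2.68%) and 34 higher (30.4%), protein-coding genes 26 of 1740 (1.49%) and 305 (17.5%), and lncRNAs 7 of 66 (10.6%) and 18 (27.3%). The mitochondrial class was the only one named here with more features lower than higher, 9 of 36 (25%) against 4 (11.1%). Only 15 of the 2552 features were lower by 10-fold or more. Of the most abundant C/D snoRNAs, Snord2 gave 6410 CPM in NoDox and 5124 in wildtype, Snord14c/Snord14d 6310 and 3194 (ratio 1.98) and Snord49a 5557 and 4702. Of the H/ACA snoRNAs, which guide pseudouridylation, Snora9 gave 744 and 536 CPM, Snora81 544 and 378 and Snora16a 417 and 404, and of the scaRNAs of Cajal bodies Scarna2 gave 49.1 and 29.3, Scarna10 35.7 and 23.2 and Scarna9 25.996 and 33.1. Of 43 features of misc_RNA and other small RNA, 5 (11.6%) were lower and 19 (44.2%) higher. The 7SK RNA Rn7sk, a regulator of transcription elongation, gave 112 and 42.6 CPM (68.4 in Dox), and the RNase P RNA Rpph1 63.7 and 43.6. Of the mitochondrial tRNAs, 8 of 21 were lower and none was higher, with a median ratio of 0.559; mt-Te gave 101 CPM in NoDox and 210 in wildtype, and mt-Ts2 2058 and 1190.

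Outside hairpins, several of the RNAs that differed most from wildtype were at similar levels in NoDox and Dox, and others were not. The Y RNA Rny1, a partner of the Ro60 protein, gave 1180 CPM in NoDox, 7218 in wildtype, 1043 in Dox and 3216 in Dicer-null cells (ratio 0.163), and with it the misc_RNA class was 0.297 times the wildtype share by reads and 1.12 times by distinct sequences. Rny3 gave 130, 77.3 and 124 CPM. A feature shared by 5S rRNA-like genes (n-R5s101 and others) gave 23 reads in NoDox, 34019 in wildtype, 21 in Dox and 44435 in Dicer-null cells. The snRNA model Gm24871 gave 173, 5167, 142 and 13642 reads, and Mir3096, annotated as a snoRNA, 80, 2120, 80 and 2929. Among those higher in NoDox, the RNase P-like Rprl3 gave 231 reads in NoDox, 0 in wildtype, 192 in Dox and 0 in Dicer-null cells, and Gm28438 gave 2870, 4, 4312 and 22. The lncRNAs Gm36816 (246 NoDox, 3 wildtype and 181 Dox reads), Gm26870 (508, 14 and 246), Gm47808 (155, 10 and 100) and Gm47031 (286, 35 and 220) were higher too. Of these Gm26870 had 19.1 CPM in NoDox and 8.84 in Dox. Gm42047 was lower, with 2, 249 and 0 reads. Rny1, Rprl3, the 5S-like feature and Gm28438 thus differed from wildtype in the same direction with the drug and without it. Gm13267 gave 0 reads in NoDox, 105 in wildtype and 2 in Dox, and Dnm3os 0, 106 and 12, and in wildtype both consisted wholly of 20- to 24-nt reads. Dnm3os is the host transcript of Mir199a-2 and Mir214.

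Of the 6 protein-coding genes lower by 10-fold or more in NoDox, 4 gave mainly reads of miRNA size in wildtype, and all 6 were named after their values were seen. Zfp385c gave 8 reads in NoDox, 907 in wildtype, 194 in Dox and 1 in Dicer-null cells, with 166 ± 44.2 CPM (SD, n = 2) in the FLAG IPs, and 99.9% of its wildtype reads were 20 to 24 nt long. Cpsf4l gave 17, 236, 233 and 47 reads and 84.8 ± 9.30 CPM in the IPs. Rprd1a gave 45, 581, 266 and 161 reads, 86.6% of them in wildtype of 20 to 24 nt, and 70.2 ± 22.2 CPM in the IPs. Zcwpw1 gave 7, 545, 7 and 11 reads, mostly of 20 to 24 nt too (85.9%), but only 0.966 CPM in the IPs, and it was as low in Dox as in NoDox. Homer3 (8, 150, 7 and 739 reads) and Mid1 (6, 138, 3 and 691) had 0% and 13.8% of wildtype reads at 20 to 24 nt and were as low in Dox as in NoDox. Zfp385c, Cpsf4l and Rprd1a thus had more reads in Dox than in NoDox and were held in the IPs, and the other 3 did not and were not above 1 CPM there.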

How the data were processed

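Small-RNA libraries of mouse embryonic stem cells were used as deposited: each file lists distinct read sequences with a raw read count, per the file headers and the labels. Trimming and any alignment by the authors were not stated in the labels or headers. The TT-FHAgo2 library without doxycycline and the wildtype library had 1 library per group, the labels giving no replicate, so ratios carry exact 95% conditional binomial intervals and shares Clopper-Pearson intervals, both for counting error only. PCR copies without molecular identifiers are not independent molecules.

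Reads of 18 nt or more were matched without mismatch over their whole length to GENCODE M21 transcripts in Python 3.11.15 (numpy 2.4.6, pandas 2.3.3, scipy 1.17.1, numba 0.67.0, figures with matplotlib 3.10.9), with miRNA hairpins taking a read before any other class. Reads stop at 40 nt in these libraries. CPM is the count over all reads of the file. A feature was called lower or higher at a 2-fold ratio, from 100 reads over both libraries. A count of 0 was set to 3 counts per library for bounds.

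RefSeq mature arms were placed in 1017 of 2202 miRNA hairpin genes, and other hairpins were split at the midpoint. The guide was the arm with more reads in 2 FLAG IP libraries. IP levels are given without the background of the IPs from the TT-Ago2 line, which were not used here. Reads fitting several hairpin groups, 163569 in NoDox and 230103 in wildtype, were left out of the arms. A tailed read began within 1 nt of a mature 5' end and carried 1 to 4 bases beyond a templated stretch of 18 nt or more.

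Genes to name were taken from the 10 most abundant hairpin features, the 8 highest and 8 lowest ratios, the 3 most abundant members of each list, the 12 guide arms with most NoDox reads among hairpins with a RefSeq mature arm (a limit added after seeing the data), and, of RNA outside hairpins and protein-coding genes, the 6 highest and 6 lowest ratios and the 3 most abundant of each family. The text gives most of these, and others where it says so. Members, lists and comparisons were chosen with earlier results of these data known. On simulated data with Poisson noise alone, all 100 arms made 4-fold lower were called and 0% of 105 unchanged arms. Alternatives for scaling, read minimum, length, multiple matches, tails, guide choice and counting of distinct sequences were run, and 3 were added after seeing the data.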

Additional observations from a re-analysis of the deposited data

How the results depend on the processing

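No paired analysis was possible because each group has 1 library, and for the same reason no library was left out. Depth limits hairpins with few reads, and 3 counts are 0.113 CPM in NoDox. Matches were exact, so reads with a mismatch were not counted.

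Counting each distinct sequence once moved most. The hairpin ratio was then 0.608, 131 hairpin features were lower and 3 higher, the median log2 ratio was -0.91, and reads of 20 to 24 nt made 37.9% and 53.0% of hairpin sequences in NoDox and wildtype. In that setting the ratios of C/D snoRNA, misc_RNA, protein-coding and snRNA were 0.970, 1.12, 1.06 and 0.829, and scaled to matched reads they were 1.67, 0.408, 2.37 and 1.46. Mir142 and Gm47276/Gm47281/Gm47301 changed sign with distinct sequences (log2 ratios of 0.46 and -0.17), and the second also with reads of 20 to 24 nt (-0.0074). Scaled to reads of 18 to 26 nt the hairpin ratio was 0.0336. From 1000 reads, 189 features were lower, 5 higher and the median was -6.75. From 20 reads 28 were higher and the median was -5.70. The median was -6.80 with reads of 20 to 24 nt and -6.60 scaled to reads outside hairpins, and 3 features were higher with sequences of 1 hairpin gene and 15 with tailed reads. With the guide named from Dox the median arm difference was 2.90, and with arms from 20 reads the passenger kept more in 151 groups. The share of A tails as a median over arms was 2.37% in NoDox and 4.14% in wildtype, and in wildtype 5.38% with tails of 1 base and 5.71% without miR-292a-5p. The share of T tails was 4.81% in NoDox and 2.997% in wildtype as a median over arms, 6.195% and 4.02% with tails of 1 base, 5.02% and 3.85% without miR-292a-5p, and 4.17% in wildtype with a prefix of 20 nt. The direction of these shares between the libraries was kept in each. Of values of named hairpins under alternatives, 196 moved by less than 0.1 on the log2 scale, 100 moved by more with the same sign and 3 changed sign. The cause was not tested.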
